A study of Mus musculus with 6 samples.

Results

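The regulators of G protein signaling (RGS) described here are 10 mouse genes, Rgs2, Rgs3, Rgs4, Rgs5, Rgs10, Rgs12, Rgs14, Rgs16, Rgs17 and Rgs19, out of 53700 genes listed in the deposited expression table. They were chosen by gene symbol after a fall of Rgs16 in the same comparison was known, and the question was whether that fall is shared within the family. Their values are therefore a description, as are the counts passing a threshold, and no p-value is given for any of the 10. Each symbol names a single Ensembl identifier in the table. RNA-seq of poly-A mRNA was compared between 3 pLV-Control libraries and 3 pLV-SEMA6A libraries of SL4, a luciferase-expressing mouse colorectal cancer (CRC) cell line. The pLV-SEMA6A cells stably overexpress SEMA6A from a lentivirus, and the labels describe the pLV-Control cells only as SL4 without that overexpression. No separately derived pLV-SEMA6A lines are described, so an effect of SEMA6A and a difference between lines cannot be told apart. Nothing states that libraries of a group came from separate cultures, so the spread between them may be technical.

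All pLV-Control libraries listed Sema6a at 0, while those of pLV-SEMA6A gave 98.7, 118 and 112 TPM, the direction of the labels. TPM, transcript abundance corrected for length within a library, keeps no read depth, so no counting interval or detection limit is given. SL4 is labelled a CRC line, but the 8 epithelial markers examined summed to between 0.13 and 0.54 TPM per library, and Epcam and Cdx2 were listed at 0 throughout. Col1a1, Pdgfra, Pdgfrb and Acta2, markers of fibroblasts or pericytes, summed to between 43.4 and 46.8 TPM in pLV-Control and between 102.0 and 106.7 TPM in pLV-SEMA6A. The list did not move 1 way, as Acta2 (1.57) and Col1a1 (1.02) had log2 fold changes above 0 and Pdgfra (−0.63) and Pdgfrb (−0.59) below 0, all of them DEGs. Acta2 made up most of the sum, with its mean going from 31.2 to 94.1 TPM, while Pdgfrb went from 10.5 to 6.66 TPM and Pdgfra from 1.76 to 0.78 TPM. The part of these markers in the results on RGS genes was not tested. Leukocyte and endothelial markers did not exceed 0.15 TPM in any library.

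RGS proteins are brakes on G protein-coupled receptors. An activated receptor loads the G alpha subunit with GTP, and the RGS domain speeds up the hydrolysis of that GTP, which ends the signal. In the R4 subfamily (Rgs2, Rgs3, Rgs4, Rgs5 and Rgs16 here) most proteins are small and hold little besides the RGS domain. Among the R12 genes, Rgs10 encodes a small protein, while Rgs12 and Rgs14 encode large scaffolds that also bind Ras-type GTPases and GDP-bound G alpha. The RZ proteins Rgs17 and Rgs19 carry a cysteine-rich string that is palmitoylated.

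Rgs16 and Rgs3 were the members that met the criterion for a differentially expressed gene (DEG), both downward, so the stretches before their annotated starts are shown. The sequences are from RefSeq on GRCm38.p6, matched by symbol, whereas the submitters' processing notes name mm39. Rgs16 has 1 promoter window in that table, at chr1:153740103-153740352 before its start, and Rgs3 has 2, at chr4:62559597-62559846 and chr4:62619422-62619671, all on the plus strand. Each line gives the 250 bases before a start, 5′ to 3′, with capitals for matches on either strand to the 6 motifs searched.
Rgs16: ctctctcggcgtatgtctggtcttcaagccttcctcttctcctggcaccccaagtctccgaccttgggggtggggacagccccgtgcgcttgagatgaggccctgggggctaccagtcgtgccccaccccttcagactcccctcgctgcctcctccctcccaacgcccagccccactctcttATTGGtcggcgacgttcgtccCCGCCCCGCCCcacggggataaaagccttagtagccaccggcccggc
Rgs3, promoter 1: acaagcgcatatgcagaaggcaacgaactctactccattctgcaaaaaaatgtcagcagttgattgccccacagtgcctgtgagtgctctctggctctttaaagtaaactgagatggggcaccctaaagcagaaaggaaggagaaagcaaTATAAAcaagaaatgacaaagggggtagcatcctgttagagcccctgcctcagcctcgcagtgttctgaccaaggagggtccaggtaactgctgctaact
Rgs3, promoter 2: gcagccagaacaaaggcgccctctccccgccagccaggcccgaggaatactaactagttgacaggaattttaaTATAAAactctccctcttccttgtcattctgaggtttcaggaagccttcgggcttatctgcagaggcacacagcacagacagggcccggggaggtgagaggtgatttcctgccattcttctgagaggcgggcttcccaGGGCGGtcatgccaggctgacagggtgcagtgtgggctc

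In the Rgs16 window, capitals mark a CCAAT box at positions −68 to −64 from the start and 2 overlapping GC boxes from −47 to −37, all read on the opposite strand. Both Rgs3 windows hold a match to the TATA box letters, at −100 to −95 and at −177 to −172, and promoter 2 also holds a GC box match at −39 to −34. The motif letters were GGGCGG for the GC box, present in 35.7% of the 32851 promoter windows of 300 bases, then CCAAT for the CCAAT box (37.4%) and TATAAA for the TATA box (13.6%). The core of the interferon-stimulated response element, GAAANNGAAA, is in 3.44% of all windows, the gamma-activated site TTCNNNGAA in 8.30% and the cAMP response element TGACGTCA in 1.79%. None of these last motifs has a match in any of the 13 windows of the 9 members with an entry. The whole Rgs16 window has a GC content of 66.0% with 22 CpG dinucleotides, against 49.7% with 4 and 58.7% with 9 in the Rgs3 windows. The medians over all windows are 52.7% and 7 CpG dinucleotides. A match is a description of letters and not evidence of binding.

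Rgs16 (ENSMUSG00000026475), on chromosome 1, encodes an R4 protein that acts on Gi- and Gq-type G alpha subunits. Its TPM values were 5.48, 6.33 and 5.45 under pLV-Control, against 0.96, 1.20 and 1.72 under pLV-SEMA6A. Every pLV-SEMA6A library thus lay below every pLV-Control library, by a wide gap. The mean TPM fell 4.45-fold, from 5.75 ± 0.50 to 1.29 ± 0.39 TPM (SD, n = 3 each). The values were then fitted with limma on the log2(TPM + 1) scale, which understates changes of low genes, together with all 12510 genes that had a mean of at least 1 TPM. On that scale the log2 fold change was −1.57 (standard error 0.15, 95% confidence interval −1.93 to −1.20), and with a pseudocount of 0.1 it was −2.10. DEGs had to differ by more than 0.5 in log2 fold change, either way, with an adjusted p under 0.05, and 98 of the 1347 downregulated DEGs fell more than Rgs16. In bulk RNA, fewer cells that express a gene and less RNA per cell cannot be told apart. None of the 2309 stretches of 31 bases in the annotated Rgs16 transcript occur in transcripts of other genes (GENCODE M21).

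Rgs3 (ENSMUSG00000059810), on chromosome 4, produces several R4 isoforms from alternative starts, and the table gives a single value for all of them. It was at 17.9, 19.3 and 18.4 TPM under pLV-Control, against 12.1, 10.7 and 13.5 TPM under pLV-SEMA6A. The groups did not overlap, and the difference was smaller than that of Rgs16, with a log2 fold change of −0.58 (standard error 0.087, 95% confidence interval −0.79 to −0.38). Rgs3 met the DEG criterion, but 1018 downregulated DEGs fell more, and after each library was centred on its median the log2 fold change was −0.49, short of the minimum of 0.5. Of the 31-base stretches in Rgs3 transcripts, 12.5% occur elsewhere, mainly in the processed pseudogene Gm5763, which was listed at 0 in all 6 libraries. How reads of the shared stretches were assigned is not known, which leaves some uncertainty in the level of Rgs3.

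Of the 10 genes, 7 passed the filter of 1 TPM. Rgs16 and Rgs3 were the DEGs among them, so 2 of 7 were downregulated and 0 upregulated. Over all 12510 genes tested, 15.9% were DEGs, with 10.8% downregulated and 5.12% upregulated. After centring, all genes split into 1002 upregulated and 961 downregulated DEGs in place of 640 and 1347, and Rgs16 was the only DEG among the members. Without the minimum fold change, limma gave 3 of 7 members an adjusted p under 0.05, all lower, against 47.6% of all genes. After centring, 2 of 7 members were lower and 0 higher at that threshold. The libraries of the groups did not overlap in 3 members, each lower in pLV-SEMA6A, while 58.5% of all genes did not overlap and 34.7% did so in that direction. The median log2 fold change was −0.21 over the 7 members and −0.19 without Rgs16, beside −0.064 over all genes. Because the genes were chosen from this same comparison, nothing further is read from these counts.

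**Figure D1:**
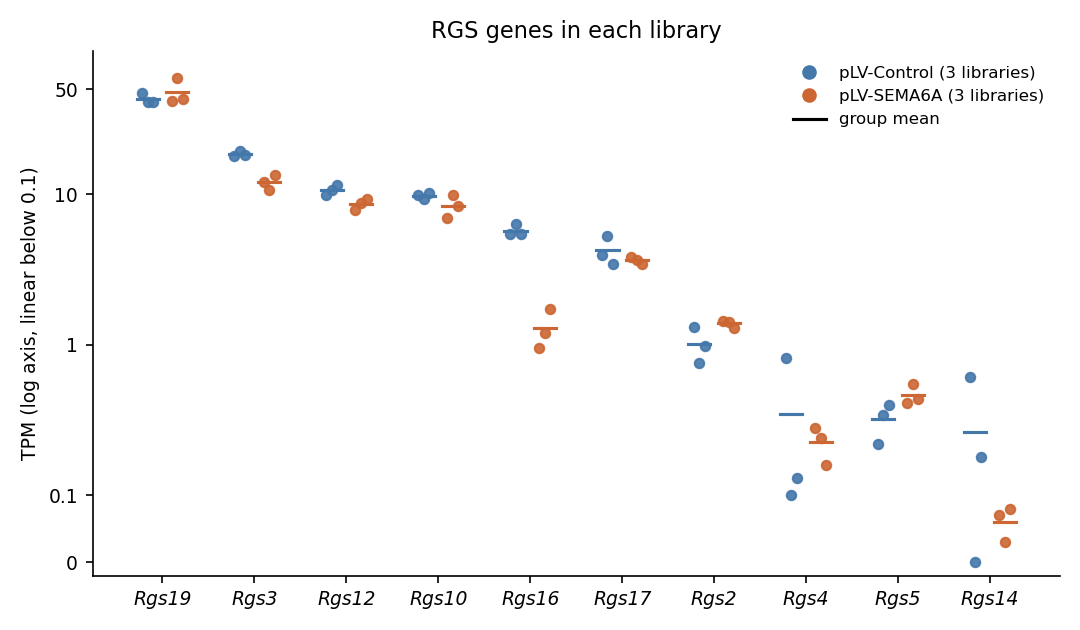
TPM (log axis, linear below 0.1) of the 10 RGS genes in the 3 pLV-Control libraries (blue) and the 3 pLV-SEMA6A libraries (orange), ordered by their pLV-Control mean, with horizontal bars for group means. On this log axis Rgs16 shows the widest gap between the groups, from 5.45 TPM or more to 1.72 TPM or less, while Rgs19 is the most abundant in both.

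**Figure D2:**
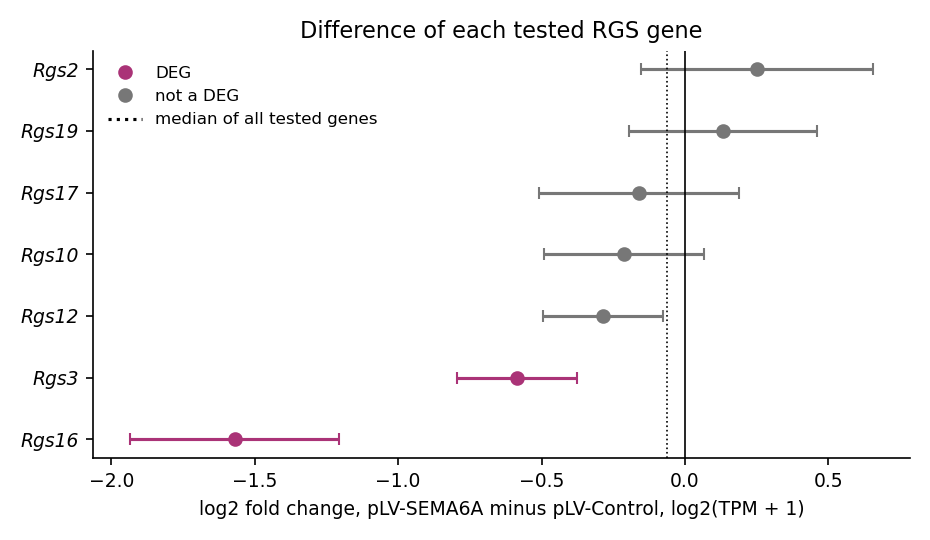
Log2 fold change (pLV-SEMA6A minus pLV-Control, on log2(TPM + 1)) of the 7 tested RGS genes, with 95% confidence intervals from limma as bars and a dotted line at the median of all genes tested. Rgs16 at −1.57 and Rgs3 at −0.58 are the DEGs, and the other 5 lie between −0.29 and 0.25.

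The R12 genes gave smaller differences. Rgs12, the large scaffold on chromosome 5, was at 9.86, 10.8 and 11.6 TPM under pLV-Control, against 7.87, 8.70 and 9.31 TPM under pLV-SEMA6A. Its groups did not overlap, although the nearest libraries were close. The log2 fold change of Rgs12 was −0.29 (standard error 0.087, 95% confidence interval −0.49 to −0.077), under the minimum for a DEG, and it was −0.19 after centring. Leaving out each library in turn gave log2 fold changes of Rgs12 from −0.34 to −0.23. Rgs10, the small R12 gene on chromosome 7, was at 9.84, 9.32 and 10.2 TPM under pLV-Control, against 7.01, 9.83 and 8.31 TPM under pLV-SEMA6A, where replicate 2 reached the pLV-Control range. Its log2 fold change of −0.21 had a 95% confidence interval of −0.49 to 0.067. This value was −0.10 without pLV-SEMA6A replicate 1 and −0.32 without pLV-SEMA6A replicate 2, so it depended on single libraries and stayed short of the minimum for a DEG.

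Rgs19, also known as GAIP, was at 47.1, 41.2 and 41.4 TPM under pLV-Control, against 42.0, 59.2 and 42.8 TPM under pLV-SEMA6A. pLV-SEMA6A replicate 2 stood above the others, and the remaining libraries of both groups overlapped. The log2 fold change of Rgs19 was 0.13 (95% confidence interval −0.19 to 0.46), and −0.024 without that library, against 0.22 without pLV-SEMA6A replicate 1 and 0.21 without pLV-SEMA6A replicate 3. Rgs17, the other RZ gene, was at 3.96, 5.33 and 3.46 TPM under pLV-Control, against 3.82, 3.66 and 3.46 TPM under pLV-SEMA6A. Its groups overlapped fully, with a log2 fold change of −0.16 (95% confidence interval −0.51 to 0.19), which became −0.018 without pLV-Control replicate 2 and −0.27 without pLV-Control replicate 3. Rgs2, an R4 gene whose protein prefers Gq-type subunits, was near the filter, at 1.31, 0.76 and 0.99 TPM under pLV-Control, against 1.44, 1.43 and 1.30 TPM under pLV-SEMA6A. The lowest pLV-SEMA6A library of Rgs2 was just under the highest pLV-Control library, and the log2 fold change was 0.25 (95% confidence interval −0.15 to 0.65), or 0.16 without pLV-Control replicate 2. These intervals include 0 and reach further upward for Rgs2 and Rgs19 and further downward for Rgs17. They pass the DEG minimum of 0.5 only upward for Rgs2 and downward for Rgs17.

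Rgs4, Rgs5 and Rgs14 stayed below the filter and were not tested. Rgs4, an R4 gene of neurons, was at 0.82, 0.10 and 0.13 TPM under pLV-Control, against 0.28, 0.24 and 0.16 TPM under pLV-SEMA6A, so pLV-Control replicate 1 alone set its group mean. Rgs14 had its highest value in the same library, with 0.61, 0.00 and 0.18 TPM in pLV-Control and 0.07, 0.03 and 0.08 TPM in pLV-SEMA6A. Rgs5, a marker of pericytes, was at 0.22, 0.34 and 0.40 TPM under pLV-Control, against 0.41, 0.55 and 0.44 TPM under pLV-SEMA6A, where all libraries were higher by a small margin. The number of reads behind values this low is unknown, so no difference is read from them.

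The table lists 14 further genes with an Rgs name. Rgs20, the third RZ gene, was the only one of them tested, at 2.38, 4.18 and 2.09 TPM under pLV-Control, against 2.85, 3.09 and 2.55 TPM under pLV-SEMA6A. The groups differed by 0.016 in log2 fold change (standard error 0.21, limma adjusted p = 0.957), and their libraries overlapped. Rgs1, Rgs6, Rgs18, Rgs21 and Rgs22 were listed at 0 in all 6 libraries. The other 8 had means of at most 0.53 TPM over all libraries. Among these, Rgs9bp, a membrane anchor of R7-type RGS proteins, was at 0.16, 0.21 and 0.21 TPM under pLV-Control, against 0.03, 0.06 and 0.03 TPM under pLV-SEMA6A, too low for the filter.

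In pLV-Control, the order of the levels in TPM was Rgs19, Rgs3, Rgs12, Rgs10, Rgs16, Rgs17, Rgs2, Rgs4, Rgs5 and Rgs14. Libraries of neighbours in this order overlapped between Rgs12 and Rgs10 and from Rgs2 down to Rgs14. In pLV-SEMA6A, Rgs16 ranked 7 instead of 5, behind Rgs17 and Rgs2, and its libraries overlapped with those of Rgs2. The ratio of Rgs16 to Rgs3 in TPM, which does not depend on the scaling of a library, was 0.31 ± 0.016 in pLV-Control and 0.11 ± 0.025 in pLV-SEMA6A (SD, n = 3 each), without overlap.

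Summed over the 10 genes, the level was 97.0, 93.4 and 92.2 TPM in pLV-Control and 76.0, 95.4 and 81.0 TPM in pLV-SEMA6A. The groups overlapped through pLV-SEMA6A replicate 2, the library with the highest Rgs19. The R4 genes together were at 25.7, 26.8 and 25.4 TPM under pLV-Control, against 15.2, 14.1 and 17.1 TPM under pLV-SEMA6A, and these did not overlap. The R12 genes summed to 20.3, 20.1 and 22.0 TPM against 15.0, 18.6 and 17.7 TPM, likewise without overlap. Rgs3 (means of 18.5 and 12.1 TPM) and Rgs16 (5.75 and 1.29 TPM) made up most of the R4 means of 26.0 and 15.4 TPM. The R4 difference is thus mainly that of these genes. Of the other R4 genes, all at low levels, Rgs2 and Rgs5 had higher means in pLV-SEMA6A and Rgs4 a lower one. The RZ genes summed to between 44.8 and 51.0 TPM in pLV-Control and between 45.8 and 62.8 TPM in pLV-SEMA6A. Rgs16 made up 6.11 ± 0.59% of the sum in pLV-Control and 1.55 ± 0.50% in pLV-SEMA6A, and Rgs19 45.8 ± 2.35% and 56.7 ± 4.74% (SD, n = 3 each).

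**Figure D3:**
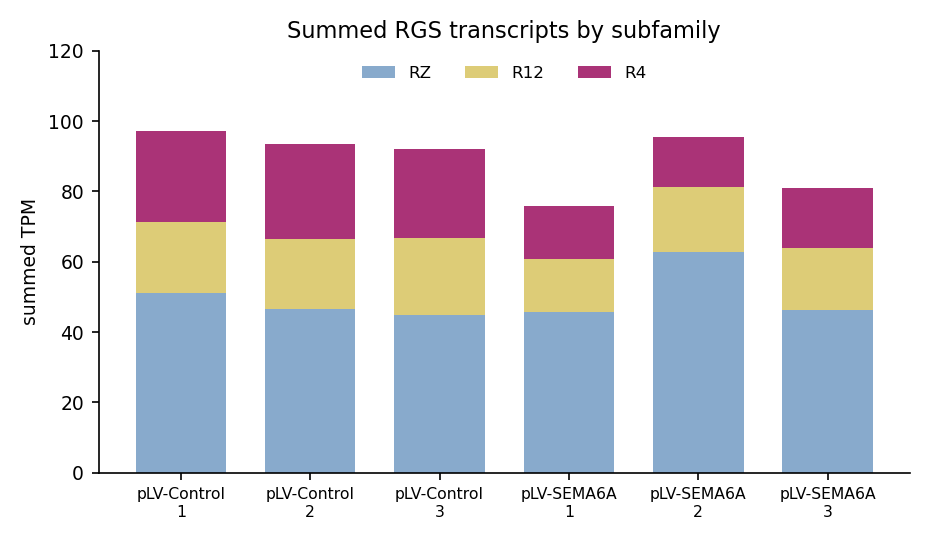
Stacked bars of the summed TPM of the 10 RGS genes in each library, split into the RZ, R12 and R4 subfamilies. The R4 part, mostly Rgs3 and Rgs16, is at 25.4 TPM or more in the pLV-Control libraries and at 17.1 TPM or less in the pLV-SEMA6A libraries. The RZ part is highest in pLV-SEMA6A replicate 2.

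The other genes of G protein signaling were taken from lists of 108 genes, of which 56 were tested by limma. DEGs were 6 downregulated and 2 upregulated genes, or 14.3% of those tested, close to the 15.9% of all genes. Their median log2 fold change was −0.077. Among the G alpha subunits, a family that includes the substrates of RGS proteins, 1 of 9 was a DEG. This was Gnao1, the G alpha o subunit, which was at 10.1, 8.06 and 10.2 TPM under pLV-Control, against 6.61, 4.58 and 3.69 TPM under pLV-SEMA6A (log2 fold change −0.83, standard error 0.19, adjusted p = 0.0117 from limma). The abundant inhibitory subunits did not meet the DEG criterion. Gnai2, with means of 126 and 152 TPM, differed by 0.27 in log2 fold change (limma adjusted p = 0.00184), and Gnai3 by −0.017 (limma adjusted p = 0.665).

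Of 10 tested G beta and gamma subunits, limma called 0 as DEGs. At an adjusted p under 0.05 from limma there were 5 lower and 1 higher, or 3 and 2 after centring. Before centring, 3523 of all 12510 genes tested were lower and 2436 higher at that threshold. Gng5 had means of 861 and 663 TPM and a log2 fold change of −0.38. Of 18 tested other regulators, the downregulated DEGs were Gpsm1 (−0.64, adjusted p = 0.00217 from limma), whose GoLoco motifs bind GDP-bound G alpha, and Arrb2 (−0.61, adjusted p = 0.00164 from limma), the beta-arrestin that uncouples receptors. Among these regulators 0 were upregulated DEGs, while 3 were lower and 5 higher at an adjusted p under 0.05 from limma. Over all genes tested, 47.6% met that threshold. Among 7 tested effectors Adcy6, an adenylyl cyclase inhibited by Gi, was downregulated (−0.58, adjusted p = 0.000718 from limma), and its log2 fold change of −0.49 after centring was short of a DEG.

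Receptors gave 4 DEGs of 12 tested. S1pr1, a Gi-coupled receptor for sphingosine 1-phosphate, was at 6.75, 5.90 and 7.53 TPM under pLV-Control, against 2.26, 2.59 and 2.0 TPM under pLV-SEMA6A. The difference of −1.23 in log2 fold change (standard error 0.12, limma adjusted p = 0.000361) was the lowest among the 56 genes. Ptger4, a Gs-coupled receptor for prostaglandin E2, was also downregulated (−0.62, adjusted p = 0.00976 from limma). Lpar1, a receptor for lysophosphatidic acid, was upregulated (0.79, limma adjusted p = 0.00643), with 7.52, 7.44 and 9.03 TPM under pLV-Control against 18.4, 13.6 and 12.2 TPM under pLV-SEMA6A. F2r, the thrombin receptor PAR1, was upregulated too (0.55, limma adjusted p = 4.7e-05), with means of 59.9 ± 0.98 and 88.3 ± 2.21 TPM (SD, n = 3 each).

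**Figure D4:**
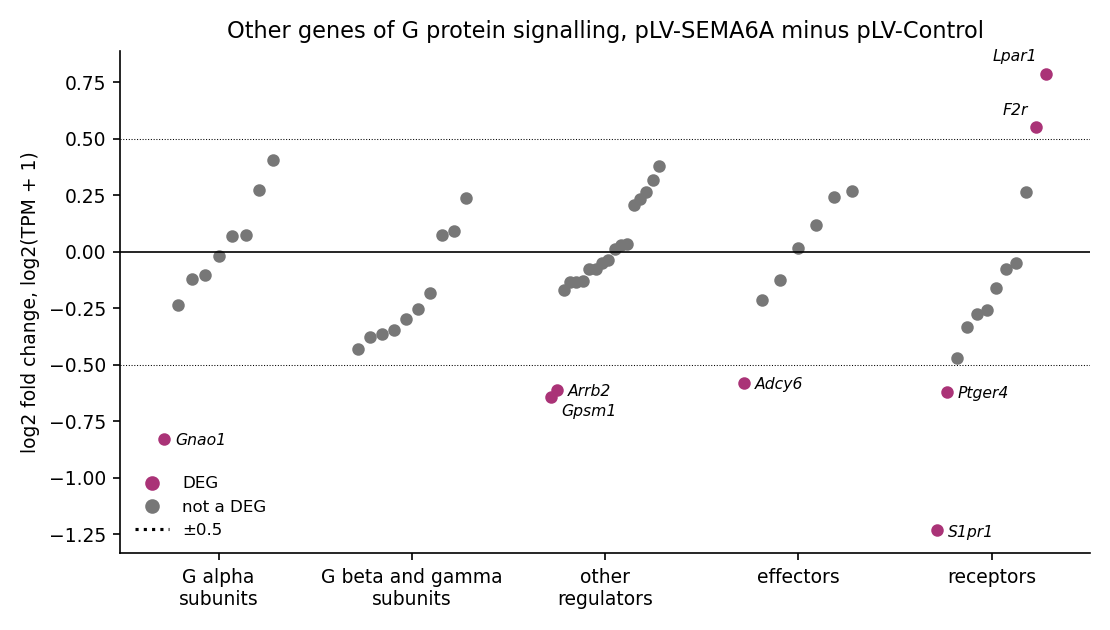
Log2 fold change (pLV-SEMA6A minus pLV-Control, on log2(TPM + 1)) of the 56 tested genes of G protein signaling, by list, with DEGs in purple and named and dotted lines at the minimum of 0.5 in either direction. S1pr1 at −1.23 and Lpar1 at 0.79 are the extremes, and 48 of the 56 genes are not DEGs.

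The pattern of Rgs16 over the 6 libraries was compared with those of the 8184 genes that had a mean of at least 10 TPM. The Pearson correlation of log2(TPM + 1) was highest, at 0.998, for Arpc1b, Ech1, Rps23, Phyhd1 and Edem2. These points fall into the same 2 groups of libraries, and 1000 of the 8184 genes had a correlation over 0.95, so many genes rank close to these. Their log2 fold changes ranged from −2.25 for Phyhd1 to −0.17 for Arpc1b. Within the family, the correlation with Rgs16 was 0.97 for Rgs3, 0.90 for Rgs12, 0.65 for Rgs10, 0.49 for Rgs17, −0.39 for Rgs19 and −0.79 for Rgs2.

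Among the tested genes near Rgs16 in the RefSeq gene order of chromosome 1, Dhx9, an RNA and DNA helicase, was upregulated (log2 fold change 1.07, standard error 0.033), with means of 37.9 ± 0.85 and 80.7 ± 1.02 TPM (SD, n = 3 each). Its direction was opposite to that of Rgs16. Lamc1 (−0.23), Glul (−0.054) and Ier5 (−0.12) were not DEGs. The R4 gene Rgs8, which also lies nearby, was listed at 0.02 TPM or less in every library.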

How the data were processed

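Poly-A mRNA of SL4 cells was fragmented, reverse transcribed with random primers and sequenced on an Illumina platform. Per the labels and the values, the authors deposited TPM for each library with 2 decimals, and their group means, which were not used. The submitters' processing notes name HISAT, Bowtie2, RSEM and mm39, with no roles or versions. DESeq2 is named in the study for the comparison, but it needs counts and was not run.

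The 12510 genes whose mean reached 1 TPM entered a limma model of log2(TPM + 1) by group, with its trend option (limma 3.58.1, R 4.3.3), and Benjamini-Hochberg adjustment ran over all of them. Only the limma step was tested on simulated data, in which fewer genes were changed than the DEGs found here. RefSeq sequences and gene order (GRCm38.p6) and GENCODE M21 transcripts were used by symbol or identifier. Of the 10 members, 9 had a promoter window, and Rgs14 is named only.

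The members, gene lists and tests were chosen with earlier results of these data known. Genes outside the members were named by rule: called genes of each list (up to 3 in each direction), other Rgs genes of at least 1 TPM, the 5 genes with the highest correlation with Rgs16 and the 3 nearest tested genes on each side of it, of which some are not reported here. Further genes (Rgs9bp, Rgs8, Gm5763, Gnai2, Gnai3, Gng5 and genes listed at 0) were chosen after their values were seen, as were the promoter motifs. The alternatives tried were another pseudocount, filter, scaling, minimum fold change or variance trend, the replicate block and leaving out each library.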

Additional observations from a re-analysis of the deposited data

How the results depend on the processing

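The count of DEGs over all genes moved from 1987 to 5959 with no minimum fold change and to 385 when a log2 fold change of 1 was required. For the RGS genes the count of 2 became 1 with that minimum of 1, after each library was centred on its median, and with a filter of at least 5 TPM, which leaves 4 members and removes Rgs16 itself. For the 56 genes of G protein signaling the count of 8 became 26 with no minimum and 1 with a minimum of 1. Leaving out each library in turn gave 1900 to 1975 DEGs over all genes, 2 in each fit among the RGS genes, and 8 to 9 among the genes of G protein signaling. The log2 fold change of Rgs16 stayed between −1.70 and −1.46 in those fits, and that of Rgs19 ranged from −0.024 to 0.22, with the sign changed without pLV-SEMA6A replicate 2.

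Titles number the libraries of both groups from 1 to 3. Across genes, departures from the group mean correlated between libraries of the same number at −0.059 on average (from −0.079 to −0.023). Between libraries of different numbers the average was 0.029 (from −0.010 to 0.079). No pairing by number is visible, but so few libraries cannot exclude that those of a number were handled together. With the replicate block there were 1924 DEGs over all genes, 2 among the RGS genes and 8 among the genes of G protein signaling. The number of reads behind each TPM value is unknown, which limits what can be said of genes under 1 TPM.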
